A study of Schizosaccharomyces pombe with 12 samples.

Results

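The genes described here lie at the ends of chromosomes I and II of the fission yeast Schizosaccharomyces pombe, next to the telomeres. They were taken by systematic identifier, from 10 cosmid or plasmid prefixes that cover the 4 chromosome ends (SPAC212, SPAC977, SPAC186, SPAC750, SPAC869, SPBC1348, SPBCPT2R1, SPBPB2B2, SPBPB21E7 and SPBPB10D8). Of 115 listed features with these prefixes, 9 were left out by name (SPAC977.17, SPAC186.09, mel1, ght7, gal1, gal7, gal10 and the pfl genes), which leaves 106 of the 7015 features in the tables. The rule uses identifiers and names, not measured values, though it was chosen with earlier results of these data known. The members lie 28 at the left end and 25 at the right end of chromosome I, and 30 at the left end and 23 at the right end of chromosome II. RefSeq, whose assembly is ASM294v3, lists all 106, and its product names were used to sort them into 38 genes of uncharacterised families, 33 enzymes, 16 transporters, 13 pseudogenes, 3 helicases and 3 other proteins.

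The series asks how heavy water (D2O) changes gene expression in this yeast. Total RNA was sequenced from 12 samples of wild type cells without selection markers, grown in the rich medium YES to exponential phase. The control group (4 samples) stayed in ordinary YES and received no treatment. The other groups (4 samples each) were incubated in YES made with 100% D2O for 5 h or for 24 h. The submitters call the 4 samples of a group independent, without saying whether each was a separate culture, so the p-values measure the spread between these samples. No group was kept in ordinary YES for a matching 5 h or 24 h, so time in D2O, time in culture and the transfer itself cannot be told apart.

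Subtelomeres of fission yeast are packed into heterochromatin, in which the methyltransferase Clr4 marks histone H3, the HP1 protein Swi6 binds the mark, deacetylases such as Clr3 and Sir2 remove acetyl groups, and the RNA interference proteins Ago1 and Dcr1 help to recruit the machinery. Genes in these regions are typically weakly expressed in rapidly dividing cells, and many of them are known to be expressed more under stress or nitrogen starvation. The regions hold many duplicated genes: 58 of the 106 members had a near-identical copy, meaning a listed protein at least 90% identical to it over at least 90% of the shorter protein. For 55 of the 58 the copy was another member, and 19 copy families had members at more than 1 chromosome end. In bulk RNA, fewer cells that express a gene and less RNA per cell cannot be told apart.

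The tables held between 26775612 and 27166349 counts per sample. Levels of a gene are given below as CPM, counts scaled to a common library total after TMM scaling, a correction for differences in RNA composition between libraries. On this scale 3 counts correspond to between 0.104 and 0.126 CPM. One library stood apart: ribosomal RNA took 2.84% of the counts in 24 h replicate 2 and between 0.0617% and 0.717% in the other 11. Without it, 85 members were still higher and 11 lower at 24 h than in the control, the same numbers as with it, and 62 rather than 67 were higher at 24 h than at 5 h.

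The members took a larger share of the counts in D2O. Their summed share was between 0.1725% and 0.1878% in the control samples, between 0.4438% and 0.4755% at 5 h and between 0.4216% and 0.4533% at 24 h. The control range did not overlap the other 2. A summed share is weighted to the members with most counts. At 5 h all members held between 120203 and 127315 counts per sample. Of these, SPAC977.14c held between 25829 and 29248 (5466 to 6776 in the control) and eno102 between 12444 and 13608 (343 to 383). Per length, on the authors' RPKM scale (counts divided by feature length and by library total), the median member had 0.996 in the control, 4.73 at 5 h and 8.90 at 24 h, while the median of all features was 27.9, 33.7 and 34.1. In the control 53 members were under 1 RPKM, and 11 were at 24 h. The members with an RPKM above the median of all features numbered 12 in the control, 16 at 5 h and 15 at 24 h, so most members stayed below the typical gene at every time.

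At 5 h, 76 of the 97 members that could be tested were higher than in the control and 8 were lower, at an adjusted p under 0.05 in edgeR's quasi-likelihood test over 6683 features. Among all features tested, 76.4% were called in either direction, 39.1% as higher and 37.3% as lower. At 24 h, 85 members were higher and 11 lower than in the control, against 81.2% of all features called in either direction, 41.8% upward and 39.4% downward. Changes of at least 2-fold were found in 55 members upward and 4 downward at 5 h (8.47% and 3.82% of all features), and in 66 upward and 8 downward at 24 h (12.1% and 9.01%). The median log2 fold change of the members was 1.33 at 5 h and 2.32 at 24 h, where that of all features was 0.01 at both times. In CPM the 4 samples of each group did not overlap for 72 members upward and 8 downward at 5 h. Of all features, 69.3% were so separated in either direction, and 35.2% of all features were separated upward. At 24 h the samples did not overlap for 84 members upward and 11 downward. Of all features, 76.3% were so separated in either direction, and 39.2% of all features were separated upward.

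Part of the list entered the test only through its D2O values. Of the 106 members, 44 had a mean control count under 10 (a limit chosen after the values were seen), and the 35 of these that were tested passed the low-count filter largely through the D2O samples. The other 62 members were all tested: 43 were higher and 8 lower at 5 h, where 38.5% and 37.8% of all features with such control counts were called, and 50 were higher and 11 lower at 24 h, against 41.2% and 40%. At least 2-fold rises were called for 24 of the 62 at 5 h (7.57% of such features) and 31 at 24 h (11.1%). Their median log2 fold changes were 0.63 and 0.97. The members whose control level could be measured thus rose in larger shares than the background, by smaller amounts than the full list shows.

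Most members that rose did so by 5 h and went on rising. Higher levels at both times were found for 75 members, of which 55 were higher at 24 h than at 5 h, 9 were lower and 11 did not differ by this test. The share of all features with this or the other joint patterns below is not given here. Taken singly, 39.1% of all features were higher at 5 h and 41.8% at 24 h. The joint counts also include members with few control counts, which could hardly have been called lower. Between 5 h and 24 h, 67 of the 97 tested members rose and 18 fell (33.6% and 34.6% of all features, 68.3% in either direction), with a median log2 fold change of 0.63, where all features had -0.01. The rises of at least 2-fold numbered 29 and the falls 3 (4.32% and 2.05% of all features). The samples were apart for 63 members upward and 18 downward. Of all features, 61.2% were apart in either direction, and 30.4% of all features were apart upward. Among the 62 members with measurable control counts, 35 rose and 18 fell between the times (33.2% and 35% of such features), and 10 rose at least 2-fold (3.85%). Another 10 members were higher at 24 h without having been higher at 5 h. Lower levels at both times were found for 6 members, and SPBPB2B2.08, a gene of unknown function, was the only tested member that differed from the control at neither time.

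**Figure D1:**
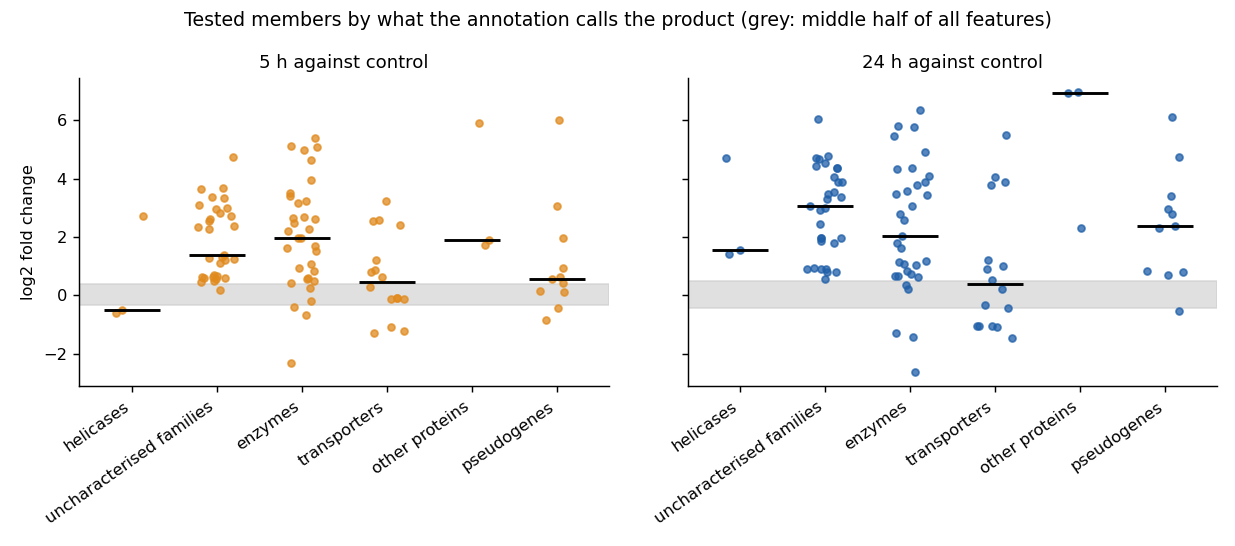
Log2 fold change of each tested member at 5 h (left) and 24 h (right) against the control, by what RefSeq calls the product; black bars are medians and the grey band runs from the lower to the upper quartile of all features tested. At 24 h the transporters spread to both sides of the band (median 0.38, and -0.39 for the 12 with a mean control count of at least 10). The points of the uncharacterised families (median 3.07) include 15 with a mean control count under 10, which passed the low-count filter largely through the D2O samples.

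tlh1 and tlh2 first fell and then rose above the control, while the third helicase rose at both times. tlh1 and tlh2 encode RecQ type DNA helicases. Among the features with the 10 prefixes they are the outermost at the left end of chromosome I and the right end of chromosome II. tlh1 measured 5.60, 5.30, 6.61 and 6.58 CPM in the 4 control samples, 4.48, 4.48, 4.02 and 4.15 at 5 h and 18.8, 17.5, 18.2 and 16.2 at 24 h. tlh2 measured 6.26, 6.64, 6.82 and 7.76 CPM in the control, 4.73, 4.41, 4.09 and 4.65 at 5 h and 19.3, 19.8, 18.0 and 17.0 at 24 h. Both were lowest at 5 h and highest at 24 h, with no overlap between any 2 of the 3 groups. At 5 h the log2 fold change against the control was -0.49 (SE 0.099) for tlh1 and -0.62 (SE 0.095) for tlh2, with adjusted p of 4.05e-04 and 3.08e-05 in edgeR's quasi-likelihood test. At 24 h it was 1.55 (SE 0.087) and 1.43 (SE 0.084). From 5 h to 24 h tlh1 rose 4.12-fold and tlh2 4.13-fold.

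SPAC212.06c, which RefSeq calls a helicase-like protein and which is near-identical to a stretch of tlh1 and tlh2, had 0.124, 0.314, 0.210 and 0.197 CPM in the control, 1.38, 1.54, 1.30 and 1.44 at 5 h and 5.88, 6.17, 5.79 and 5.07 at 24 h. It was already higher at 5 h, with a log2 fold change of 2.71 (SE 0.22), and reached 4.72 (SE 0.18) at 24 h. Its control values rest on 3 to 8 counts per sample, and the ratio of summed counts at 24 h was 26.9 (exact 95% interval 17.5 to 43.8, counting error only). tlh1 and tlh2 have identical coding sequences where they align, and the sources used here do not say how reads that match several copies were counted. Summed over the 3 genes, the level was 13.1 ± 1.20 CPM in the control (SD, 4 samples), 10.2 ± 0.521 at 5 h and 41.9 ± 2.57 at 24 h. The sum was lower at 5 h (log2 fold change -0.36, SE 0.078, adjusted p 6.33e-04) and higher at 24 h (1.68, SE 0.071). tlh1 overlaps the noncoding RNAs SPNCRNA.2001 and SPNCRNA.2002.

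**Figure D2:**
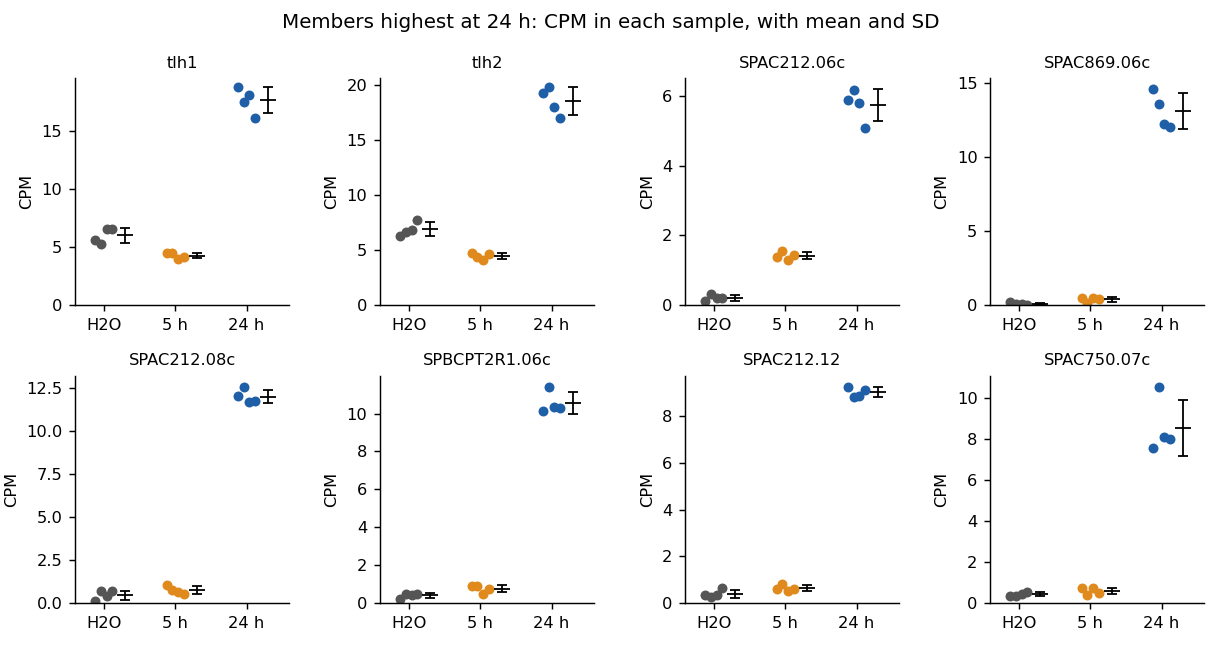
CPM of 8 members in each sample (points), with the mean and SD of each group beside them, for the control (H2O), 5 h and 24 h in D2O; each panel has its own scale from 0. The 24 h samples sit above all others in each panel, and in tlh1 and tlh2 the 5 h samples sit below the control.

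Several members close to the telomere had most of their rise after 5 h. SPAC212.08c, whose product is a GPI-anchored protein, had 0.124, 0.668, 0.379 and 0.670 CPM in the control, 1.059, 0.770, 0.635 and 0.493 at 5 h and 12.04, 12.6, 11.7 and 11.7 at 24 h. The control and 5 h values overlapped (adjusted p 0.0957), and the 24 h values lay far above both, 16.2-fold over 5 h. SPBCPT2R1.06c, a pseudogene copy of it at the right end of chromosome II, had 0.206, 0.471, 0.421 and 0.473 CPM in the control, 0.918, 0.876, 0.494 and 0.739 at 5 h and 10.1, 11.4, 10.4 and 10.3 at 24 h. It was slightly above the control at 5 h without overlap (adjusted p 0.00524) and rose 13.9-fold from there to 24 h.

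SPAC212.12, another GPI-anchored protein, and SPAC750.07c, its identical copy at the other end of chromosome I, had similar values. SPAC212.12 had 0.330, 0.236, 0.337 and 0.630 CPM in the control, 0.6, 0.805, 0.494 and 0.598 at 5 h and 9.27, 8.83, 8.87 and 9.14 at 24 h. SPAC750.07c had 0.330, 0.354, 0.421 and 0.552 CPM in the control, 0.706, 0.385, 0.706 and 0.493 at 5 h and 7.55, 10.6, 8.13 and 8.024 at 24 h. In both the control and 5 h values overlapped, and the 24 h values stood clear of them. Between the D2O times the log2 fold changes were 3.84 (SE 0.15) and 3.89 (SE 0.18). At 5 h SPAC212.12 was just past the threshold (adjusted p 0.0302) and was lost when control replicate 1, 2 or 3 or 5 h replicate 2 was left out, with adjusted p up to 0.107.

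Places were counted in RefSeq gene order from each end, among the 115 features with the 10 prefixes only. Members in the first 7 places at each end were set against those further in (this limit and a 4-fold rise were chosen after the values were seen). Only the 62 members with a mean control count of at least 10 were counted, since others passed the filter largely through a group where they were high. This limit does not fully keep out such members. SPBCPT2R1.10 had 7 to 15 counts in the control, 7 to 10 at 5 h and 51 to 65 at 24 h. It thus passed the filter largely through its 24 h samples. Of 13 such members in the first 7 places, 5 rose at least 4-fold from 5 h to 24 h, and of 49 further in 0 did, where 0.926% of all features with such control counts rose this far. The 5 were tlh1, SPAC212.08c, SPAC750.07c, tlh2 and SPBCPT2R1.10. They do not stand for 5 separate genes: tlh1 and tlh2 are copies of each other, and each of the other 3 has a near-identical copy among the first places of another end. Whether position and copy content can be separated was not tested. Among all tested members, SPAC869.03c and SPAC869.06c, which lie further in and had few control counts, also rose at least 4-fold between the times.

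**Figure D3:**
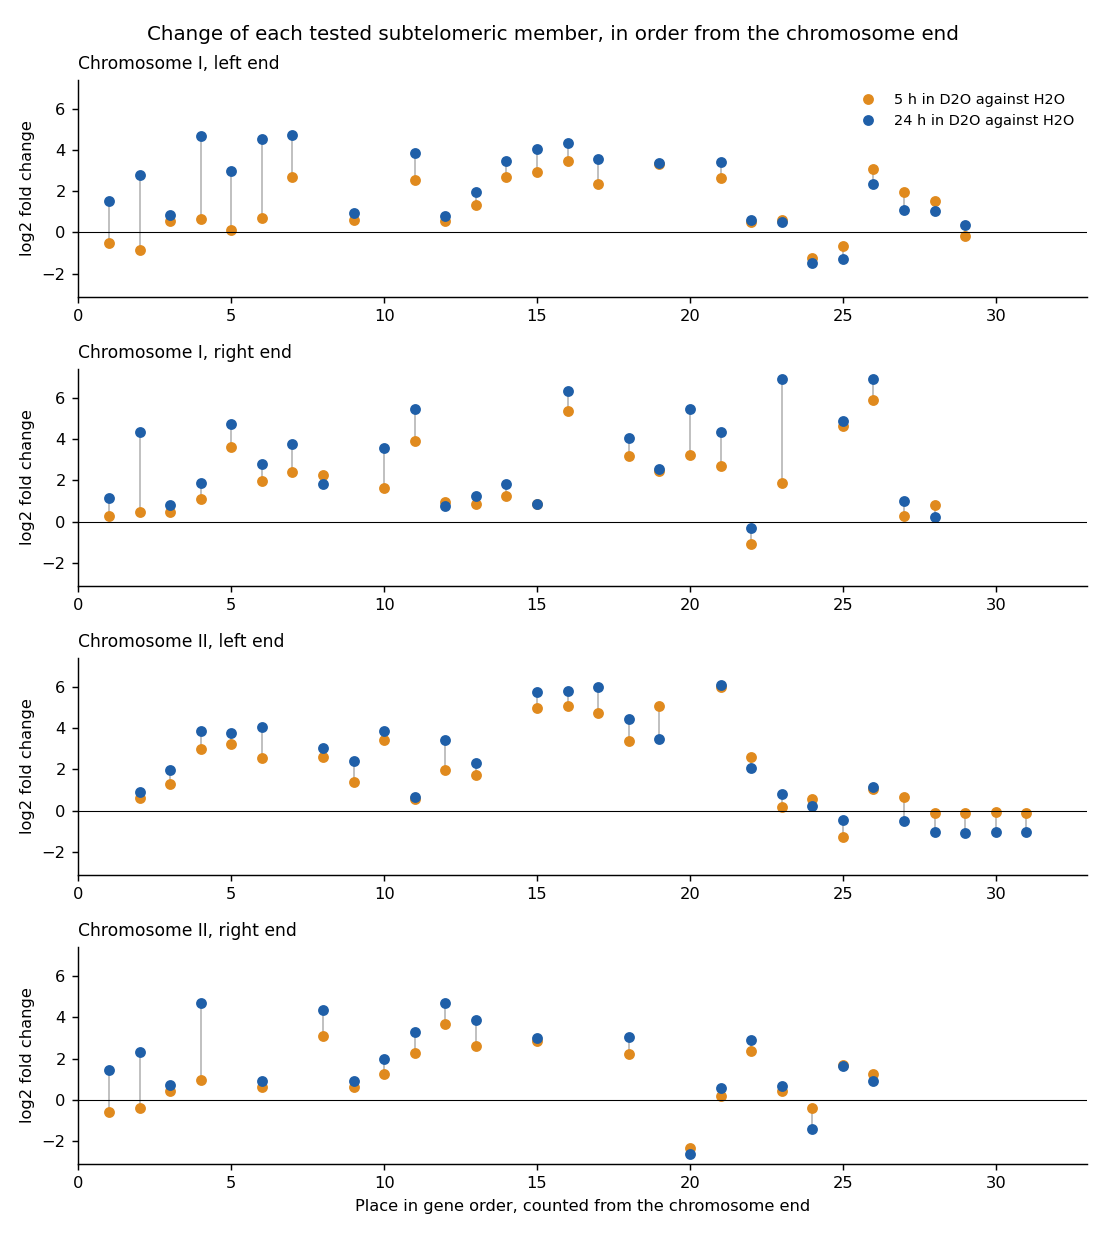
Log2 fold change of each tested member at 5 h (orange) and 24 h (blue) against the control. Members stand in RefSeq gene order from each chromosome end, counted among the features with the 10 prefixes. Gaps are features that were not tested or not members, and members with few control counts are included. Long grey lines, which mark a large change between the times, gather at the first places of the left end of chromosome I and the right end of chromosome II, and the innermost places of the left end of chromosome II lie below 0 at 24 h.

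Of the 38 genes of uncharacterised families, 31 were tested and 15 of these had a mean control count under 10, so that they could hardly have been called lower. Of the 16 with more control counts, 13 rose and 0 fell by 5 h, and 15 stood above and 0 below the control at 24 h, where 38.5% and 41.2% of all features with such control counts were higher. Their median log2 fold changes were 0.65 and 1.83. These 16 are not separate genes: they include the 5 near-identical copies described next and the 3 copies SPAC750.05c, SPBC1348.02 and SPBPB2B2.19c. All of these copies rose at both times, and they may share reads. SPAC212.01c and its copies SPAC750.06c, SPBC1348.01, SPBCPT2R1.01c and SPBCPT2R1.04c, which together occupy all 4 ends, moved little: their summed level was 26.8 ± 1.02 CPM in the control, 40.0 ± 4.52 at 5 h and 49.0 ± 1.68 at 24 h. That is a log2 fold change of 0.58 (SE 0.07) and 0.87 (SE 0.07). Singly, the 5 copies had log2 fold changes between 0.80 and 0.91 at 24 h.

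Proteins with transmembrane helices, which RefSeq calls ftm, formed copy families of high and of low level. SPAC750.05c (ftm4), SPBC1348.02 (ftm5) and SPBPB2B2.19c summed to 37.0 ± 1.599 CPM in the control, 85.5 ± 11.6 at 5 h and 142 ± 11.9 at 24 h. SPAC750.04c (ftm3), SPAC977.02 (ftm2), SPBC1348.03 (ftm6) and SPBPB2B2.17c (ftm7) summed to 0.300 ± 0.141, 2.87 ± 0.236 and 5.96 ± 0.507. Both sums rose at each step, the first by a log2 fold change of 1.94 (SE 0.087) and the low one by 4.28 (SE 0.19) at 24 h. Each gene of the low family had between 0 and 5 counts per control sample. These genes passed the low-count filter largely through the D2O samples and could hardly have been called lower. SPAC977.01 (ftm1) had 7.22 ± 0.832 CPM in the control, 18.2 ± 1.56 at 5 h and 28.0 ± 2.98 at 24 h.

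SPBPB21E7.10 and SPBPB21E7.11, of unknown function, are neighbours whose features overlap, so their counts may share reads, which was not tested. SPBPB21E7.10 had 0.412, 0.236, 0.421 and 0.158 CPM in the control, 8.54, 9.04, 8.044 and 7.57 at 5 h and 24.3, 20.2, 19.6 and 16.9 at 24 h. SPBPB21E7.11 had 0.989, 2.44, 1.47 and 0.630 CPM in the control, 13.7, 15.1, 14.6 and 14.2 at 5 h and 34.9, 30.1, 29.4 and 26.3 at 24 h. The 3 groups were apart in both, with log2 fold changes of 6.04 (SE 0.20) and 4.44 (SE 0.20) at 24 h. The first of these rests on 4 to 10 counts per control sample. SPBC1348.08c, a glycoprotein and near-identical to pfl6, rose from 1.72 ± 0.182 CPM to 4.51 ± 0.610 at 5 h and 9.28 ± 0.540 at 24 h.

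All 33 enzymes were tested. At 5 h 28 of them were higher and 3 lower (39.1% and 37.3% of all features), and at 24 h the numbers were 30 and 3 (41.8% and 39.4%). Of the 24 with a mean control count of at least 10, 19 were higher and 3 lower at 5 h (38.5% and 37.8% of such features). At 24 h the numbers for these were 21 and 3 (41.2% and 40%). Several of the steepest rises lay close together at the left end of chromosome II. eno102 encodes an enolase, an enzyme of glycolysis. It had 14.5, 15.1, 14.4 and 13.6 CPM in the control, 480, 464, 461 and 438 at 5 h and 787, 833, 772 and 737 at 24 h. All D2O samples lay at least an order of magnitude above all control samples, and the 24 h samples above the 5 h samples. It rose 32.0-fold by 5 h and 54.3-fold by 24 h, with adjusted p of 1.67e-16 and 3.56e-17 in edgeR's quasi-likelihood test. eno102 overlaps the noncoding RNA SPNCRNA.1302, and whether strand was used in counting is not given in the sources used here.

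SPBPB21E7.02c, its neighbour, belongs to the phosphoglycerate mutase and 6-phosphofructo-2-kinase family and had 0.330, 0.432, 0.253 and 0.276 CPM in the control, 10.98, 12.1, 10.97 and 11.2 at 5 h and 16.7, 19.9, 17.6 and 19.4 at 24 h. Its log2 fold change was 5.11 (SE 0.14) at 5 h and 5.81 (SE 0.14) at 24 h, from 6 to 11 counts per control sample. SPBPB21E7.04c (cmt2 in RefSeq), a catechol O-methyltransferase, peaked at 5 h instead. It had 4.94, 8.80, 6.48 and 4.41 CPM in the control, 207, 221, 218 and 195 at 5 h and 64.3, 82.5, 63.5 and 67.2 at 24 h. The groups were apart. It rose 34.0-fold by 5 h and stood 11.2-fold above the control at 24 h, and the level fell from 5 h to 24 h by 1.599 on the log2 scale (SE 0.12). It overlaps SPNCRNA.1304. aes1, annotated as a phenazine biosynthesis family protein, had 20.9, 20, 22.9 and 21.1 CPM in the control, 154, 110, 93.8 and 162 at 5 h and 81.3, 88.8, 87.6 and 93.8 at 24 h. Its 5 h samples were widely spread, but all lay above the control and, by little for the lowest of them, above the 24 h samples.

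At the right end of chromosome I, dehydrogenases and a protein repair enzyme rose. SPAC186.07c, a hydroxyacid dehydrogenase, had 0.453, 0.471, 0.421 and 0.315 CPM in the control, 7.023, 5.85, 6.10 and 6.79 at 5 h and 18.0, 22.2, 17.0 and 17.3 at 24 h, rising 44.4-fold. It overlaps the noncoding RNA SPNCRNA.61. SPAC186.02c, of the same annotated activity, rose from 0.0508 ± 0.0384 CPM to 2.33 ± 0.244 and 4.54 ± 0.619, from control values of 0 to 2 counts per sample (ratio of summed counts at 24 h 89.5, exact 95% interval 38.1 to 277). SPAC186.08c, an L-lactate dehydrogenase, had 0.416 ± 0.0926 CPM in the control, 1.30 ± 0.284 at 5 h and 4.96 ± 0.806 at 24 h. pcm2, an isoaspartate O-methyltransferase that repairs damaged proteins, had 0.371, 0.707, 0.800 and 0.512 CPM in the control, 15.4, 15.9, 14.6 and 13.97 at 5 h and 18.7, 17.7, 18.1 and 18.1 at 24 h. Nearly all of its rise was present at 5 h (24.9-fold), with a further 1.21-fold to 24 h.

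SPAC869.02c (yhb1 in RefSeq), a nitric oxide dioxygenase that detoxifies nitric oxide, was among the members with the highest CPM in D2O. It had 73.6, 82.8, 85.8 and 76.2 CPM in the control, 426, 442, 449 and 458 at 5 h and 426, 477, 475 and 514 at 24 h. The D2O groups lay above the control and overlapped each other, with fold changes of 5.58 and 5.94. The amide-cleaving enzymes near it, SPAC869.01 (an amidase) and SPAC869.04 (formamidase-like), had log2 fold changes of 4.09 (SE 0.31) and 4.37 (SE 0.28) at 24 h, from 12 and 7 control counts in all. The methyltransferases SPAC750.03c, SPAC977.03 and SPBC1348.04 are near-identical copies and summed to 0.575 ± 0.0916 CPM in the control, 4.24 ± 0.270 at 5 h and 7.06 ± 0.227 at 24 h. Each of these copies had at most 7 counts in a control sample.

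**Figure D4:**
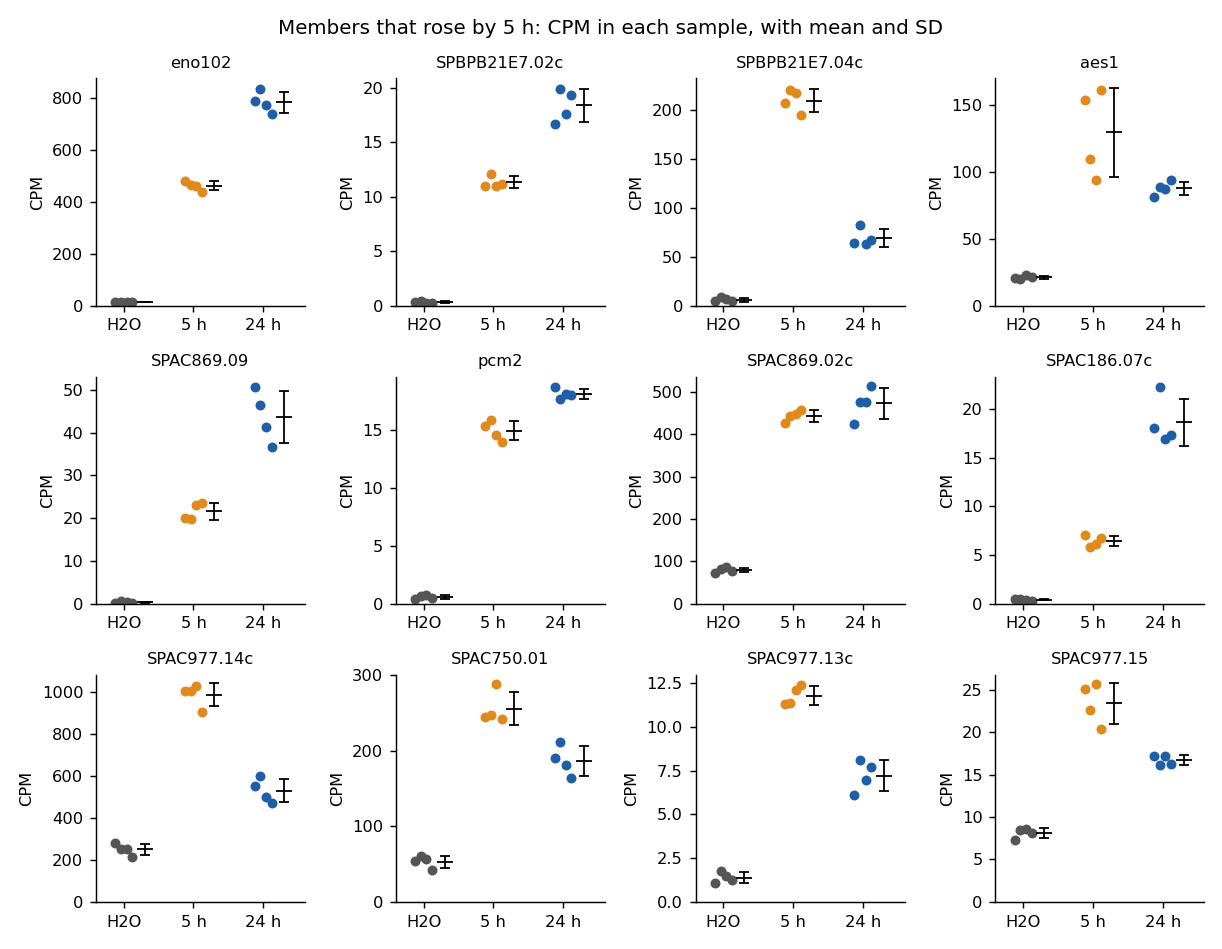
CPM of 12 members that rose by 5 h, in each sample (points) with group mean and SD; each panel has its own scale from 0. Some went on rising to 24 h (eno102, SPAC186.07c, SPAC869.09) and others were lower at 24 h than at 5 h (SPBPB21E7.04c, aes1 and the bottom line of panels).

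The aldo-keto reductases SPAC977.14c and SPAC750.01, which reduce aldehydes and ketones, also peaked at 5 h. SPAC977.14c, the highest member per length in the control (177 RPKM), had 279, 254, 255 and 215 CPM in the control, 1009, 1006, 1032 and 909 at 5 h and 554, 600, 502 and 472 at 24 h. SPAC750.01 had 53.5, 60.7, 56.4 and 42.5 CPM in the control, 244, 248, 288 and 242 at 5 h and 190, 211.9, 181 and 163 at 24 h. In both, all 5 h samples lay above all 24 h samples and these above all controls. SPAC977.14c rose 3.94-fold by 5 h and was 2.12-fold above the control at 24 h, and for SPAC750.01 the fold changes were 4.80 and 3.50. They are near-identical copies. SPAC977.15, next to SPAC977.14c and of the dienelactone hydrolase family, had 7.33, 8.49, 8.54 and 8.12 CPM in the control, 25.02, 22.6, 25.6 and 20.3 at 5 h and 17.2, 16.1, 17.2 and 16.3 at 24 h. The members higher at both times but lower at 24 h than at 5 h numbered 9: these 5, cat1, the pseudogene SPAC977.13c, the L-asparaginase SPBPB21E7.09 and the permease SPBPB2B2.01.

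The enzymes that fell act on small metabolites. pan5, a 2-dehydropantoate 2-reductase of pantothenate synthesis, fell most. It had 77.9, 75.1, 85.1 and 73.3 CPM in the control, 14.8, 14.7, 15.2 and 17.1 at 5 h and 11.97, 12.5, 12.5 and 12.8 at 24 h. The 3 groups did not overlap, and the fall was by 2.33 on the log2 scale (SE 0.06) at 5 h and by 2.64 (SE 0.06) at 24 h, with adjusted p of 2.03e-13 and 2.77e-14. SPAC977.12, an L-asparaginase, which splits asparagine into aspartate and ammonia, had 146, 150, 160 and 158 CPM in the control, 105, 96.8, 86.5 and 97.6 at 5 h and 57.1, 63.7, 64.2 and 64.1 at 24 h. It fell at each step, by 1.30 on the log2 scale in all, while the L-asparaginase copies SPAC186.03 and SPBPB21E7.09 rose at 24 h with log2 fold changes of 0.84 (SE 0.11) and 0.23 (SE 0.063). SPAC977.12 has a near-identical copy, SPBPB8B6.05c, that is no member, and the sum of both fell likewise (log2 fold change -1.34, SE 0.064). SPBPB2B2.05, of the class I glutamine amidotransferase family, fell from 2.81 ± 0.341 CPM to 2.12 ± 0.240 and 1.03 ± 0.221.

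The phospholipases SPAC977.09c (plb4) and SPBC1348.10c are copies of identical coding sequence, so they may share reads. At 24 h their log2 fold changes were 0.62 (SE 0.046) and 0.65 (SE 0.039), and that of their sum was 0.64 (SE 0.036). SPBPB2B2.11 (tgd1), a nucleotide-sugar dehydratase, rose from 13.7 ± 1.49 CPM to 63.6 ± 2.22 and 114 ± 2.79, but it overlaps gal10, whose level was close to its own (means of 13.5, 64.2 and 117 CPM). mug180 (say1 in RefSeq, a sterol deacetylase) had 2.31 ± 0.405 CPM in the control and rose 3.22-fold at 5 h. dak2, a dihydroxyacetone kinase, had a log2 fold change of -0.19 (SE 0.11) at 5 h (adjusted p 0.122) and rose by 0.36 (SE 0.11) at 24 h. It overlaps SPAC977.17.

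Of the 16 transporters, all tested, 9 rose and 3 fell by 5 h (39.1% and 37.3% of all features). At 24 h 9 stood above the control and 7 below it, where 41.8% and 39.4% of all features did, and 4 of the 7 are copies that cannot be told apart. The shares at 24 h are thus near those of all features. Of the 12 with a mean control count of at least 10, 5 rose and 3 fell by 5 h (38.5% and 37.8% of such features). At 24 h 5 of them stood above the control and 7 below it (41.2% and 40%). Their median log2 fold changes were -0.09 and -0.39. SPAC977.11 (fex1 in RefSeq), a fluoride exporter of the plasma membrane, had 54.6, 50.4, 49.3 and 50.3 CPM in the control, 22.6, 22.6, 21.9 and 20.2 at 5 h and 18.1, 18.7, 19.8 and 17.4 at 24 h. Its groups were apart and it fell by 1.23 on the log2 scale (SE 0.06) at 5 h and by 1.47 (SE 0.06) at 24 h. The sum with SPBPB8B6.06c, a near-identical copy outside the members, fell by 1.43 at 24 h.

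SPAC869.05c and SPBPB10D8.01 fell first and then partly came back. SPAC869.05c (sul2 in RefSeq), a sulfate transporter, had 60.5, 56.4, 60.4 and 58.7 CPM in the control, 27.5, 28.8, 28.7 and 27.2 at 5 h and 45.2, 51.7, 46.3 and 45.4 at 24 h. SPBPB10D8.01, a cysteine transporter, had 70.9, 68.7, 70.9 and 70.2 CPM in the control, 33.1, 27.0, 26.3 and 29.4 at 5 h and 49.3, 51.0, 54.0 and 51.2 at 24 h. In both the 5 h samples were lowest and the 24 h samples lay between them and the control without overlap. The recovery between the D2O times was 0.75 (SE 0.05) and 0.83 (SE 0.061) on the log2 scale, with adjusted p of 1.01e-08 and 2.82e-08. SPBPB10D8.02c, an arylsulfatase, which releases sulfate from sulfate esters and whose feature overlaps SPBPB10D8.01, went the other way. It had 34.9, 39.1, 38.2 and 39.2 CPM in the control, 88.5, 77.9, 66.7 and 85.7 at 5 h and 79.6, 82.0, 86.3 and 89.6 at 24 h, a rise of 2.11-fold and 2.23-fold.

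The 4 transporter genes SPBPB10D8.04c, SPBPB10D8.05c, SPBPB10D8.06c and SPBPB10D8.07c stand in a row at the inner edge of the left end of chromosome II. Their coding sequences are identical where they align and their counts were close to equal in each sample, so they cannot be told apart. SPBPB10D8.04c had 91.6, 92.8, 84.1 and 95.1 CPM in the control, 92.3, 88.2, 72.6 and 80.8 at 5 h and 36.5, 45.6, 46.2 and 45.5 at 24 h. Summed, the 4 genes had 369 ± 16.3 CPM in the control, 343 ± 33.5 at 5 h and 177 ± 14.4 at 24 h. The control and 5 h levels did not differ by the test (log2 fold change -0.10, SE 0.074, adjusted p 0.209), and the 24 h level was lower (-1.06, SE 0.075, adjusted p 4.71e-09). They make up 4 of the 11 members lower at 24 h.

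**Figure D5:**
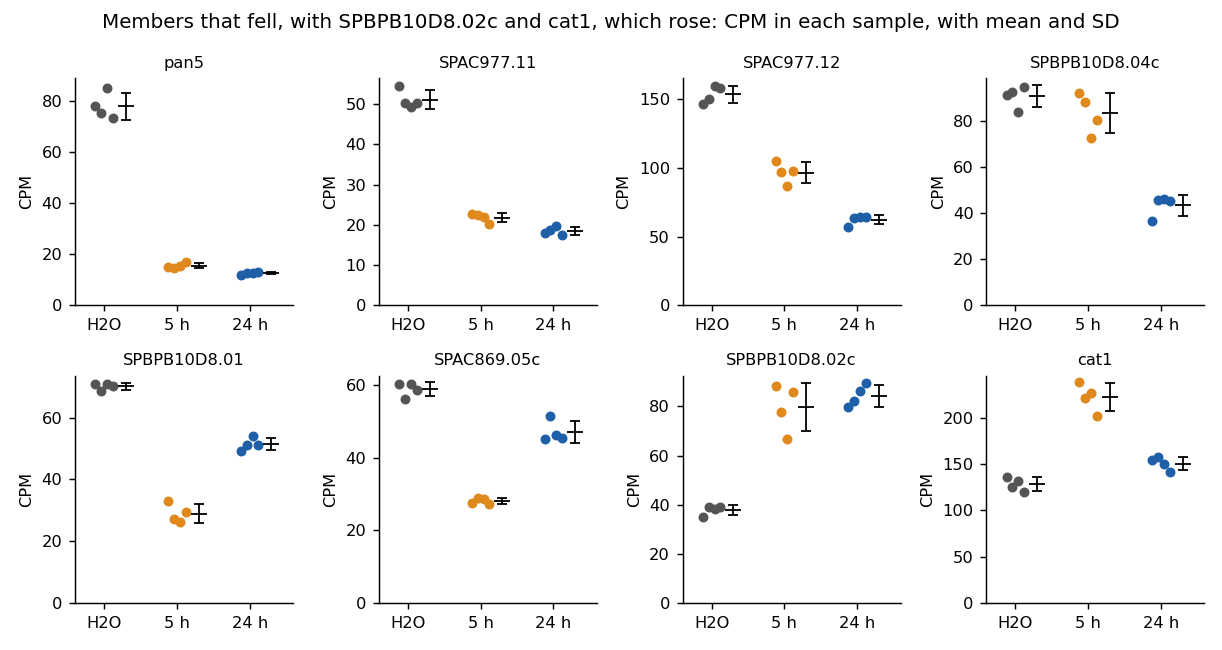
CPM of 8 members in each sample (points) with group mean and SD, for the control (H2O), 5 h and 24 h in D2O; each panel has its own scale from 0. pan5, SPAC977.11 and SPAC977.12 were lower at both times, SPBPB10D8.04c at 24 h, SPBPB10D8.01 and SPAC869.05c were lowest at 5 h, and SPBPB10D8.02c and cat1 were higher.

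Among transporters that rose, a copy family with a gene at each of the 4 ends showed steady gains. SPAC750.02c, SPBC1348.05 and SPBPB2B2.16c are transporters, of which RefSeq calls the last a member of the major facilitator family, and SPAC977.04, an uncharacterised protein, is their copy. SPBC1348.05 had 0.453, 0.432, 0.421 and 0.197 CPM in the control, 2.29, 2.24, 2.26 and 2.08 at 5 h and 6.20, 6.75, 5.97 and 6.15 at 24 h. The groups were well apart, as they were in the other copies, whose log2 fold changes at 24 h were 3.77 for SPAC750.02c, 3.89 for SPBPB2B2.16c and 3.55 for SPAC977.04. The coding sequences are at least 99.8% identical where they align. The 4 copies may thus share reads and need not be separate measurements, which was not tested. Each had between 5 and 13 counts per control sample, with a mean under 10, and passed the low-count filter largely through the D2O samples. Summed, the family rose from 1.39 ± 0.232 CPM to 7.84 ± 0.259 and 20.1 ± 1.75. SPAC869.03c, a urea transporter, rose from 0.0711 ± 0.0213 CPM to 0.704 ± 0.175 and 3.38 ± 0.432, from 7 control counts in all (ratio at 24 h 47.8, exact 95% interval 23.0 to 120).

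cat1, an arginine and lysine transporter, had 137, 126, 132 and 120 CPM in the control, 239, 222, 227 and 203 at 5 h and 155, 157, 150 and 141 at 24 h, with its highest samples at 5 h. Its log2 fold change was 0.79 (SE 0.057) at 5 h and 0.23 (SE 0.056) at 24 h. put4, a proline transporter, had 0.29 at 5 h and 1.00 at 24 h, and it overlaps SPNCRNA.1091. sod2, the sodium and proton antiporter (nhe1 in RefSeq), had 0.62 and 0.53, and SPAC186.05c (gdt1, a GDT1-like protein) had 0.87 and 1.22, all of them past the threshold. SPBPB2B2.01, an amino acid permease, had 1.23 and 0.89.

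The 3 remaining proteins all rose. SPAC869.09, of the Con-6 family, named for a gene expressed in conidia of the mould Neurospora crassa, had 0.288, 0.550, 0.379 and 0.197 CPM in the control, 20.01, 19.9, 23.1 and 23.6 at 5 h and 50.6, 46.4, 41.4 and 36.6 at 24 h. Its groups were apart, 60.5-fold over the control at 5 h and 122-fold at 24 h, and it overlaps SPNCRNA.1093. These fold changes rest on 5 to 14 counts per control sample. SPAC869.06c (hry1 in RefSeq), with a cation-binding HHE domain, had 0.206, 0.0786, 0.0842 and 0.0394 CPM in the control, 0.494, 0.175, 0.494 and 0.387 at 5 h and 14.6, 13.6, 12.2 and 12.1 at 24 h. The 5 h values overlapped the control (adjusted p 0.00211), and the 24 h values stood far above both. Between 5 h and 24 h the log2 fold change was 5.07 (SE 0.19), the largest among the members tested. The control held 10 counts over 4 samples, and the ratio of summed counts at 24 h was 130 (exact 95% interval 70.2 to 271). SPBC1348.12, a DNA-binding transcription factor, had 5.11, 4.12, 4.63 and 3.59 CPM in the control, 15.0, 12.9, 14.5 and 15.5 at 5 h and 23.4, 19.9, 21.5 and 22.02 at 24 h, a rise of 4.98-fold.

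Of the 13 pseudogenes, 11 were tested. By 5 h 7 rose and 0 fell (39.1% and 37.3% of all features), and at 24 h 10 stood above the control and 1 below (41.8% and 39.4%). Of the 7 with a mean control count of at least 10, 5 rose and 0 fell by 5 h (38.5% and 37.8% of such features). At 24 h 6 of these stood above the control and 1 below it (41.2% and 40%). SPAC977.13c had 1.07, 1.77, 1.47 and 1.26 CPM in the control, 11.3, 11.3, 12.1 and 12.4 at 5 h and 6.13, 8.10, 6.95 and 7.71 at 24 h, highest at 5 h. SPBC1348.11 had 0.371, 0.432, 0.505 and 0.591 CPM in the control, 1.98, 1.37, 1.87 and 2.32 at 5 h and 5.66, 5.07, 5.65 and 4.17 at 24 h, highest at the later time. SPBPB10D8.03 was the only pseudogene that fell. It had 6.01, 6.21, 6.74 and 6.86 CPM in the control, 10.02, 10.47, 10.02 and 9.86 at 5 h and 4.23, 4.56, 4.82 and 4.24 at 24 h, above the control at 5 h and below it at 24 h with no overlap (log2 fold changes 0.64, SE 0.077 and -0.53, SE 0.084). SPBPB21E7.06 went from 6 control counts in all to 4.18 ± 0.570 CPM at 5 h and 4.505 ± 0.443 at 24 h.

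The pseudogenes SPAC212.10 and SPBCPT2R1.10, next to tlh1 and tlh2, had 0.274 ± 0.0930 and 0.405 ± 0.158 CPM in the control, 0.149 ± 0.112 and 0.299 ± 0.0444 at 5 h, and 1.93 ± 0.360 and 2.04 ± 0.256 at 24 h. Both were higher at 24 h, by 2.80 (SE 0.28) and 2.32 (SE 0.20) on the log2 scale. Their near-identical copy SPAPB8E5.03, outside the members, is expressed far more, and the sum of the 3 fell (log2 fold change -0.71, SE 0.064, at 24 h). Over the aligned part the coding sequences of SPAC212.10 and SPAPB8E5.03 are 83.0% identical, and the part of shared reads was not tested. SPAC212.09c and the malic enzyme gene SPAC750.08c likewise share sequence with SPCC794.12c. SPAC212.09c had a log2 fold change of 0.84 (SE 0.059) and SPAC750.08c of 1.17 (SE 0.16) at 24 h, and the sum with SPCC794.12c one of 0.46 (SE 0.041).

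The 9 members that were not tested had too few counts: SPAC212.03, SPAC212.05c, SPAC977.05c, SPBC1348.06c, SPBC1348.15, SPBCPT2R1.03, SPBCPT2R1.05c, SPBPB21E7.05 and SPBPB2B2.15. SPAC977.05c, SPBC1348.06c and SPBPB2B2.15, copies with a Vel1p domain, summed to 0.164 ± 0.110 CPM in the control, 0.105 ± 0.0905 at 5 h and 0.383 ± 0.122 at 24 h. SPAC212.03, SPBC1348.15 and SPBCPT2R1.03, copies of unknown function, summed to 0.131 ± 0.0590, 0.282 ± 0.0762 and 1.05 ± 0.0947, and this sum, taken as 1 gene, was higher at 24 h (log2 fold change 2.96, SE 0.26, adjusted p 5.31e-08). SPAC212.05c had 0 counts in all 4 control samples and 9 over the 24 h samples. SPBPB21E7.05 also had 0 in the control.

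Genes whose products act on heterochromatin and telomeres were called in about the shares found over all features. Of a list of 40 such genes, 16 rose and 14 fell by 5 h (39.1% and 37.3% of all features), and at 24 h 17 stood above the control and 15 below it (41.8% and 39.4%), with median log2 fold changes of 0.047 and 0.052. The largest changes at 24 h were in ago1 (1.12, SE 0.048) and sir2 (-0.86, SE 0.049). dcr1 rose by 0.85 (SE 0.038), clr4 by 0.60 (SE 0.053) and clr1, a silencing complex subunit, by 0.58 (SE 0.035), while the log2 fold change of swi6 was -0.69 (SE 0.051) and that of chp1, another chromodomain protein, -0.35 (SE 0.041). The part of these genes in the members' changes was not tested. Of 8 marker genes of meiosis and sporulation, another state such a culture could hold, 5 rose and 1 fell by 5 h, and 4 were above and 1 below the control at 24 h, where 39.1% and 41.8% of all features were higher. Their summed level was between 187.4 and 195.7 CPM in the control samples, between 243.1 and 256.2 at 5 h and between 353.9 and 376.3 at 24 h, and none was at 0. Without isp3, a spore wall protein gene, the sums were between 178.1 and 183.2, 179.3 and 195.9, and 210.5 and 225.3. isp3 itself was at 11.3 ± 1.75 CPM in the control, 61.6 ± 2.99 at 5 h and 152 ± 6.60 at 24 h. spn6, rec12 and meu14 were also higher at 24 h, with log2 fold changes of 0.95 (SE 0.051), 0.84 (SE 0.11) and 0.75 (SE 0.085). The 1 marker below the control at 24 h was mei4, a transcription factor of meiosis, at 14.1 ± 0.587, 13.9 ± 1.45 and 11.1 ± 0.8285. The other 3 were not called at 24 h. Whether cells in that state had a part in the result was not tested.

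The 9 neighbours that the choice left out lay 8 above and 1 below the control at 5 h (39.1% and 37.3% of all features) and 8 above and 0 below it at 24 h (41.8% and 39.4%). The melibiase gene mel1, between SPAC869.06c and pcm2, rose 223-fold at 24 h, and SPAC186.09, between SPAC186.08c and SPAC750.01, rose 30.5-fold.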

How the data were processed

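RNA-seq of 12 samples was deposited as 1 table per sample, in which the authors give a count, a length and an RPKM value for each of 7015 features. Per the submitters' processing notes BWA 0.7.12 was used, and the genome build, counting tool, strand setting and treatment of reads that match several places are not given in the sources used here. The deposited RPKM values equal the count divided by length and by the table's total, so they carry no composition scaling; RPKM was used only for levels between genes. The deposited counts were tested with edgeR 4.0.16 in R 4.3.3 (quasi-likelihood F test, group as the only term, all 12 samples in 1 model), after filterByExpr with a minimum count of 10, TMM scaling and Benjamini-Hochberg adjustment over the 6683 features that passed. The TMM factors were between 0.8788 and 0.9437 in the control and between 1.011 and 1.072 in D2O, and the spread between replicates, as edgeR's common biological coefficient of variation, came to 8.47%. Calls were made at an adjusted p under 0.05. On simulated counts for 5 h against control, 96.5% of 200 changed features among 6683 were recovered, with 7 false calls. In the data 76.4% of features were called at 5 h, so the simulation does not cover a change that wide.

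Identifiers were matched to RefSeq assembly ASM294v3 without regard to letter case, for product names, gene order, overlaps and copies. Near-identical copies were found by aligning the translated coding sequences with Biopython 1.88, and the length limit of 90% was applied to the shorter protein of a pair. No coordinates or sequences are given because the files name no build.

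The members and lists were chosen with earlier results of these data known. Named members were, per comparison, up to 12 rises and 12 falls by log2 fold change among those called, with a mean CPM of at least 5 in either group and no overlap between groups, plus tlh1, tlh2, members with a control mean of at least 100 CPM, near-identical copies of these and overlapping neighbours. Other members given with values, and the limits of 4-fold, of 10 control counts and of 7 places, were chosen after the values were seen. Replicate pairs within a group all differed by more than sampling noise (chi-square per degree of freedom between 8.38 and 128), so each sample was counted as 1 replicate. Intervals of count ratios are exact 95% intervals and cover counting error only. Alternatives were another scaling, other count filters, DESeq2 1.42.0, the replicate number as a block, fits of only the groups compared, leaving out each sample, protein-coding members, members without copies, and copies summed (added after seeing the data).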

Additional observations from a re-analysis of the deposited data

Results flagged for a closer look

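The 39 named members were screened in each of the 3 groups, 117 groups of 4 samples, for a sample set apart from the other 3 by a gap that takes up most of the group's range (Dixon's test at 95%). Chance alone gives about 1 in 20 such groups, and 6 were found. SPBC1348.05 had 0.197 CPM in control replicate 4 (5 counts) and between 0.421 and 0.453 in the other controls. SPAC750.01 had 288 CPM in 5 h replicate 3 (288.3 unrounded), against 242 to 248. SPAC869.05c had 51.7 CPM in 24 h replicate 2, against 45.2 to 46.3, and SPAC750.02c had 5.91 in the same sample, against 4.85 to 4.99. SPAC977.12 had 57.1 CPM in 24 h replicate 1, against 63.7 to 64.2, and SPBPB10D8.04c had 36.5 in that sample, against 45.5 to 46.2.

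The named members called in opposite directions at the 2 times were also collected. tlh2 went from a log2 fold change of -0.62 at 5 h to 1.43 at 24 h against the control, and the test of the difference itself, 24 h against 5 h, gave 2.05. tlh1 went from -0.49 to 1.55, a difference of 2.04. SPBPB10D8.03 went from 0.64 to -0.53, a difference of -1.18. All 3 differences passed the threshold of edgeR's quasi-likelihood test.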

How the results depend on the processing

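No alternative tried reversed a result. Under library size scaling, which moved the median of all features to 0.21 and 0.20, the members' median log2 fold change was 1.53 at 5 h and 2.50 at 24 h. Without a count filter the 5 h median was 1.25, and with DESeq2 1.24. With a mean count of at least 50 the medians were 1.076 at 5 h, 1.62 at 24 h and 0.54 from 5 h to 24 h, over the 75 members that pass it. Protein-coding members alone had medians of 1.58 and 2.18. Members without a near-identical copy, fewer by construction, gave 39 higher and 4 lower at 5 h (median 1.69), 41 and 5 at 24 h, and 30 and 9 from 5 h to 24 h. With copies summed the medians were 1.42 and 2.19, and 43 were higher at 24 h than at 5 h. Leaving out 1 sample gave 74 to 78 higher and 7 to 9 lower at 5 h (median 1.26 to 1.41), 85 to 87 and 11 to 11 at 24 h (2.28 to 2.45, the highest without control replicate 1), and 62 to 68 and 18 to 19 from 5 h to 24 h (0.60 to 0.67). The replicate block gave 77 and 8, 85 and 11, and 68 and 19, and changed no call of a named member. Same-numbered samples did not deviate together throughout (correlations between -0.183 and 0.585, not all over 0.1), so the numbers were not taken as pairs. Some did: between 24 h and 5 h the correlation was 0.585 for replicate 2 and 0.412 for replicate 4. Between 24 h and the control it was 0.412 for replicate 4. Of 2222 values of named members under alternatives, 2214 stayed on the same side of the threshold, 4 were lost (SPAC212.12 at 5 h) and 4 gained (SPAC212.08c at 5 h). Depth limits the members with few control counts: between 18 and 24 members had 3 counts or fewer in a control sample.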
